A study of Mus musculus with 40 samples.

Results

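Amino acids cross the membranes of a macrophage through carrier proteins of the solute carrier (Slc) families, and the transcripts of 10 such carriers were examined here in bone marrow-derived macrophages (BMDMs), cells that grow out of mouse marrow in culture. The 10 genes were Slc7a11, Slc7a5, Slc7a1, Slc7a8, Slc3a2, Slc38a2, Slc1a4, Slc1a5, Slc6a9 and Slc38a1. They were found by matching the Ensembl identifiers of the count table to these symbols, which gave 1 row for each, 10 of the 43430 genes listed. All 10 were among the 11853 genes that passed the filter on low counts and were tested, although Slc1a4 and Slc6a9 passed it with few counts (medians of 14 and 5 counts per library). RNA-seq had been carried out on BMDMs of 5 WT and 5 NDI1 mice, each with 4 treatments, so that 8 groups of 5 libraries and 40 libraries in all were compared. The WT mice carried Vav-iCre alone (labelled VAV-Cre WT). The NDI1 mice (VAV-Cre NDI1) carried Vav-iCre and a lox-stop-lox-NDI1 construct in the Rosa26 locus, so Cre under the Vav promoter was shared by both genotypes and expression of NDI1 was limited to hematopoietic cells. The labels give the strain as C57/Bl6, the NDI1 line had a mixed C57Bl/6J/N background, and the cells were differentiated with M-CSF. For the study as a whole, littermates of both sexes aged 8 to 14 weeks are given, and the sexes of these 10 mice are not. NDI1 is a yeast NADH dehydrogenase that passes electrons from NADH to the mitochondrial ubiquinone pool and works in the presence of piericidin A, which blocks mitochondrial complex I. BMDMs were untreated, treated with piericidin A (500 nM), treated with LPS (100 ng ml–1) for 4 h, or pretreated with piericidin A for 30 min and then given LPS. LPS, from the outer membrane of bacteria, activates macrophages through Toll-like receptor signalling. How long the cells given piericidin A alone were exposed is not stated apart from this scheme. The NDI1 transcript was not measured here, so the genotype labels were not checked against it.

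In the count table (mm10), Slc7a11 (ENSMUSG00000027737) lay at chr3:49892526-50443614, Slc7a5 (ENSMUSG00000040010) at chr8:121881150-121907694, Slc7a1 (ENSMUSG00000041313) at chr5:148327410-148399904, Slc7a8 (ENSMUSG00000022180) at chr14:54722216-54781886 and Slc3a2 (ENSMUSG00000010095) at chr19:8706882-8723369, all on the minus strand. On the same strand were Slc38a2 (ENSMUSG00000022462) at chr15:96687394-96699698, Slc38a1 (ENSMUSG00000023169) at chr15:96571418-96642913 and Slc1a4 (ENSMUSG00000020142) at chr11:20302180-20332713. Slc1a5 (ENSMUSG00000001918) at chr7:16781346-16798274 and Slc6a9 (ENSMUSG00000028542) at chr4:117834506-117875198 were on the plus strand. All are protein-coding, the counts cover their exons, and only Slc6a9 shares exon bases with other annotated genes.

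The carriers work in several ways. Slc3a2 (CD98, 4F2hc) carries no amino acid by itself. It is the heavy chain that pairs with light chains and brings them to the cell surface. Among its light chains are Slc7a11 (xCT), which takes up cystine in exchange for glutamate and so feeds cysteine into glutathione, and Slc7a5 (LAT1) and Slc7a8 (LAT2), which exchange leucine and other large neutral amino acids. Slc7a1 (CAT1) takes up arginine and lysine without a heavy chain. Slc38a1 (SNAT1) and Slc38a2 (SNAT2) take up glutamine, alanine and other small neutral amino acids together with sodium. Slc1a4 (ASCT1) and Slc1a5 (ASCT2) exchange small neutral amino acids, and Slc6a9 (GLYT1) takes up glycine. Transcription of many amino acid carriers is known to rise when ATF4, a transcription factor that is translated under amino acid shortage and other stress, binds composite ATF4–C/EBP elements, and Slc7a11 is also a known target of the oxidative stress factor NRF2.

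The start sites of several of these genes were first examined for letters that resemble such elements. RefSeq promoter windows of 300 bases (GRCm38.p6), from 250 before to 50 after a start site, were held for 7 of the 10 genes, in 10 windows. No window was held for Slc7a5, Slc1a5 and Slc38a1. The letters TGATGNAA, the ATF4–C/EBP core, were searched on both strands. They were present in the windows of Slc7a11 and Slc1a4 and in 3.97% of all 32851 windows, and with C at the open position (TGATGCAA) in the same windows of both genes and in 0.895% of all windows. In Slc7a11 the core was present once in each orientation, with first bases 66 and 47 bases before the start, and in Slc1a4 it lay across the start itself. The letters TGACNNNGC, the core of the NRF2 element, were present in windows of Slc7a1, Slc38a2 and Slc6a9 and in 12.4% of all windows. A match of letters is a description of the sequence and not a binding site. Stretches ending at the start site of the window (for Slc1a4, 4 bases past it) are given 5′ to 3′ on the strand of the gene, with the ATF4–C/EBP core in capitals. The start held for Slc3a2 lies inside the gene as the count table places it and not at its outer 5′ end. Slc7a11 and Slc1a4 are shown because they hold the core, and Slc3a2, Slc7a1 and Slc38a2 because their transcripts rose with piericidin A although the core is not within their windows.
Slc7a11, chr3:50443614-50443763, minus strand: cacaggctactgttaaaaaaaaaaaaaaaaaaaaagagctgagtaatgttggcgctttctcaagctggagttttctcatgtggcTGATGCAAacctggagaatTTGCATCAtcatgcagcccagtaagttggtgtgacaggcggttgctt
Slc1a4, chr11:20332710-20332813, minus strand: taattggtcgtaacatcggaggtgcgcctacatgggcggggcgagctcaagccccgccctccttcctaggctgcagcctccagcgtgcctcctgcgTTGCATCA
Slc3a2, chr19:8713898-8713997, minus strand: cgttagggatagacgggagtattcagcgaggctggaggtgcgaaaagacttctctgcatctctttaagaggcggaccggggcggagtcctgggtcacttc
Slc7a1, chr5:148399905-148400004, minus strand: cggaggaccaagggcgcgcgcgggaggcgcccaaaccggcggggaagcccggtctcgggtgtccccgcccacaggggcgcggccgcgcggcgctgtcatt
Slc38a2, chr15:96699729-96699828, minus strand: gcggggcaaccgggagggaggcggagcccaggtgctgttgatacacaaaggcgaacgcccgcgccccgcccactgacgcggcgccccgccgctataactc

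The libraries held 6950748 to 13552070 counts each, and levels are given in CPM (counts per 1000000 counts, TMM-scaled). The 7 macrophage markers examined (such as Csf1r, Adgre1 and Cd68) were present in every group, with summed levels of 19259 to 37714 CPM across the 40 libraries. Most of this sum was Lyz2 (group means of 17210 to 20404 CPM). Of the 17 markers of other cell types, 4 to 7 did not exceed 3 counts in any library of a group, and erythroid Hba-a1 and Hbb-bs were at or near 0 throughout. The summed level of these 17 markers was 15.1 to 113 CPM in the libraries of 8 mice and 279 to 1644 CPM in those of WT mouse 496 and NDI1 mouse 503, mostly from S100a8 and S100a9, which are abundant in neutrophils and monocytes. These 2 mice also had the highest Slc7a8 level in every treatment of their genotype and the highest Slc7a11 and Slc7a5 levels of their genotype under LPS, alone and with piericidin A. The markers also moved with treatment. The summed level spanned 22.4 to 290 CPM in untreated WT cells, 36.4 to 991 with piericidin A, 42.4 to 669 with LPS and 80.3 to 1644 with both, and in NDI1 cells 17.1 to 279, 15.1 to 363, 26.5 to 556 and 38.0 to 557 CPM. Of the 17, 10 were tested. With piericidin A in WT cells their median log2 change was 1.33 without LPS (above 0 in 10 of 10) and 1.06 with LPS (9 of 10), against 0.34 and 0.08 in NDI1 cells, and it was 0.99 with LPS alone in WT and 0.61 in NDI1 (7 of 10). The change with piericidin A in NDI1 minus that in WT had a median of −1.10 without and −0.97 with LPS. In these comparisons edgeR and DESeq2 called 0 of the 10, and 0 had an unadjusted p below 0.05, while the fit with the mouse as a block called 2 and 3 for piericidin A in WT without and with LPS, 5 and 3 for LPS in WT and NDI1 and 1 for the difference between genotypes with LPS. Without mice 496 and 503, 7 were tested and their medians with piericidin A in WT were 0.46 and 0.71. The part of such cells in the results was not tested, but each count of the 10 carriers was repeated without these 2 mice. In bulk RNA, fewer cells of a type and less RNA per cell cannot be told apart.

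Levels of different genes were compared per kilobase of exon (CPM per kb, with the exon length given in the count table). These lengths ran from 4033 bases for Slc7a8 to 22077 for Slc38a1, and the transcripts used by the cells may be shorter. The order of genes depends on them. Slc38a1 and Slc38a2, for example, had 81.5 and 113 CPM in untreated WT cells, but lengths of 22077 and 4626 bases. In untreated WT BMDMs, Slc3a2 (79.9 ± 9.03 CPM per kb, mean ± SD, n = 5) and Slc7a8 (70.9 ± 31.9) had the highest levels per length, and their ranges overlapped. Slc38a2 followed with 24.3 ± 3.38 CPM per kb and overlapped with neither neighbour. Slc38a1 (3.69 ± 0.591), Slc7a1 (2.77 ± 0.829), Slc1a5 (2.10 ± 0.111), Slc7a5 (2.00 ± 0.853) and Slc7a11 (1.45 ± 0.629) formed a lower tier, in which each overlapped with the next in order. Slc1a4 (0.170 ± 0.0534) and Slc6a9 (0.0307 ± 0.00963) lay far below. The transcript of the shared heavy chain was therefore more abundant per length than those of its light chains Slc7a5 and Slc7a11 in every untreated WT library. The order within that tier changed with treatment. Under LPS, Slc7a11 reached 9.83 ± 5.32 CPM per kb and was next in order after Slc38a2, with ranges that overlapped with those of Slc38a2 above it and Slc7a5 below it, and Slc7a8 (156 ± 50.3) stood above Slc3a2 (115 ± 16.8) with overlapping ranges. Under piericidin A alone, Slc7a1 (8.44 ± 1.53), Slc7a11 (7.67 ± 3.06) and Slc7a5 (7.48 ± 2.87) overlapped with one another, and Slc3a2 (152 ± 37.2) stood above Slc7a8 (50.0 ± 15.2) without overlap.

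**Figure D1:**
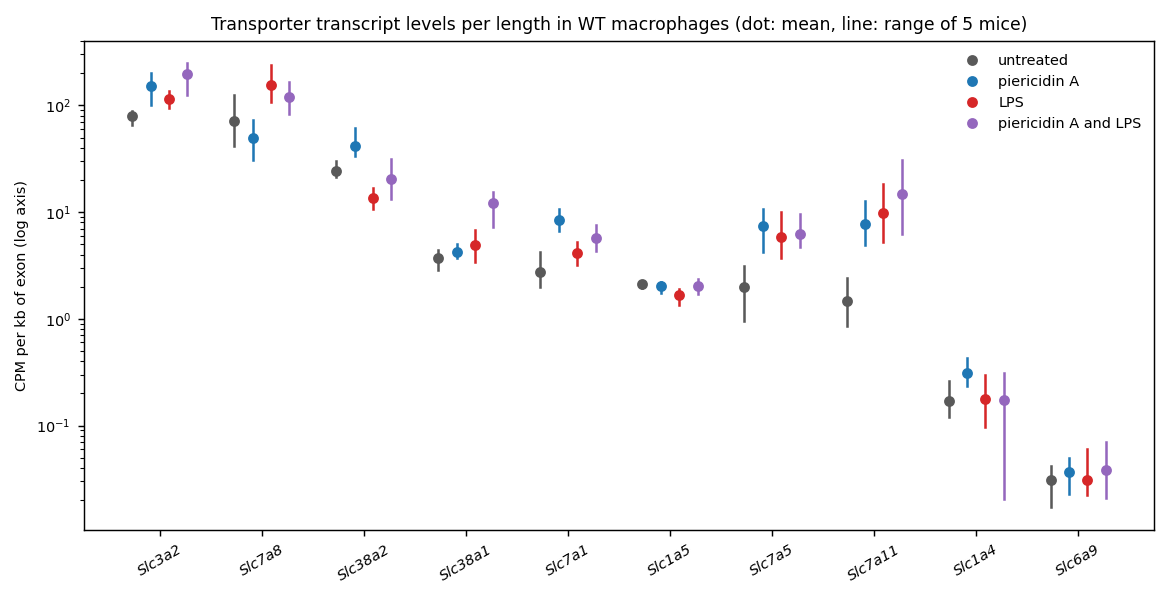
Levels of the 10 transcripts per kilobase of exon in WT BMDMs, in CPM per kb on a log axis. Dots are means and lines the range of 5 mice for untreated, piericidin A-treated, LPS-treated and doubly treated cells, and genes are ordered by their untreated mean, from Slc3a2 (79.9) down to Slc6a9 (0.0307).

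To find out how inhibition of complex I changed the carriers in resting cells, piericidin A-treated WT BMDMs were compared with untreated ones. The transcripts of 5 carriers rose, those of the cystine exchanger Slc7a11, the leucine exchanger Slc7a5, the arginine carrier Slc7a1, the heavy chain Slc3a2 and the sodium-coupled carrier Slc38a2, and none fell. Of all genes tested, 14.8% were called and 7.79% were called higher. The median log2 fold change of the 10 carriers was 0.82, against 0.00 over all genes, and that of the 10 tested markers of other cell types 1.33. Values are given below in CPM in the order of mice 449, 452, 453, 496 and 520 for WT and 447, 460, 461, 503 and 521 for NDI1, and changes as log2 fold changes ± SE with the adjusted p of edgeR's quasi-likelihood test. Slc7a11 had 15.5, 17.6, 23.7, 30.3 and 43.5 CPM in untreated WT cells and 104, 88.2, 117, 154 and 226 CPM with piericidin A. All 5 treated libraries exceeded all untreated ones, by 2.40 ± 0.50 on the log2 scale (5.27-fold, adjusted p = 0.000947). The rise within the single mice was 2.29 to 2.73, so that the mice differed far more in their level of Slc7a11 than in its response. Slc7a5 had 7.26, 7.22, 4.13, 11.0 and 13.6 CPM without and 34.5, 18.1, 20.9, 41.3 and 46.3 CPM with piericidin A. These groups did not overlap either, with a change of 1.90 ± 0.36 (3.72-fold, adjusted p = 0.000369). Slc7a1 had 25.0, 25.5, 19.4, 23.4 and 40.3 CPM in untreated and 87.8, 63.6, 77.8, 75.02 and 103 CPM in treated cells. Its groups were apart as well, and the change of 1.61 ± 0.22 (3.04-fold) had the lowest adjusted p of the 10 carriers (2.61e-06).

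The heavy chain and Slc38a2 were raised less, from higher levels. Slc3a2 had 424, 353, 467, 475 and 432 CPM in untreated WT cells and 820.5, 537, 768, 1090.4 and 886 CPM with piericidin A. Every treated library lay above every untreated one, and the change was 0.93 ± 0.14 (1.91-fold, adjusted p = 2.09e-05). Slc38a2 had 106, 112, 98.1, 108 and 139 CPM without and 212, 156, 156, 158 and 286 CPM with piericidin A, again without overlap (0.78 ± 0.18, adjusted p = 0.00318). The 5 calls were made in each of the alternative analyses. The related carriers of these genes did not pass the test. Slc7a8, the second large neutral amino acid exchanger, was lower in 5 of 5 mice, with 195, 212, 125, 294 and 182 CPM against 252, 223, 168, 503 and 283 CPM, and its change was −0.50 ± 0.31 (adjusted p = 0.291). Slc38a1 changed by 0.20 ± 0.18 (adjusted p = 0.515) and Slc1a5 by −0.05 ± 0.10 (adjusted p = 0.774), with 95% intervals of −0.18 to 0.57 and −0.26 to 0.15. Slc1a4 was higher in 5 of 5 mice (0.934 to 2.03 CPM without and 1.81 to 3.36 CPM with piericidin A, 0.86 ± 0.41, adjusted p = 0.155). With the mouse as a block, which takes out the level of each mouse, 7 carriers were called, as Slc1a4 rose (0.86 (adjusted p = 0.0251)) and Slc7a8 fell (−0.47 (adjusted p = 0.00105)). The share of all genes given above is from the fit with no block and is no background for this count. Slc6a9 changed by 0.26 ± 0.45 (adjusted p = 0.742), and since its exons share bases with 3 genes on the other strand (Ccdc24, B4galt2 and Gm17114), its counts are less certain.

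**Figure D2:**
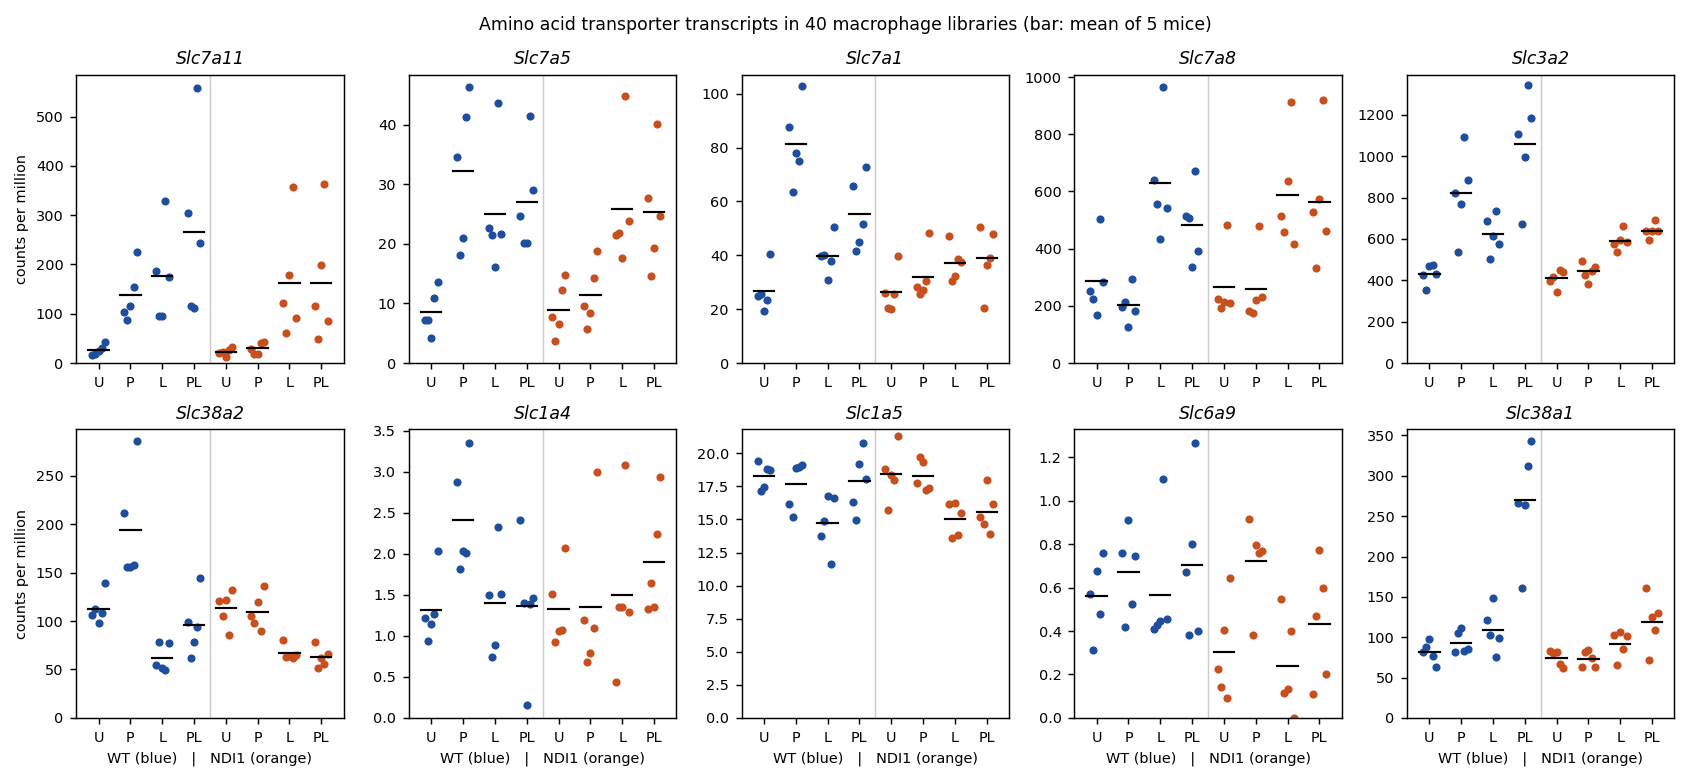
CPM of each of the 10 carriers in all 40 libraries, on linear axes from 0. Points are single mice and bars the means of 5. U, untreated; P, piericidin A; L, LPS; PL, piericidin A before LPS. In WT (blue) the piericidin A-treated libraries of Slc7a11, Slc7a1, Slc3a2 and Slc38a2 lie above all untreated ones and above all piericidin A-treated NDI1 libraries (orange).

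Next, the effect of piericidin A was examined in LPS-treated WT cells. The transcripts of 3 carriers rose, Slc3a2, Slc38a2 and Slc38a1, and none fell, where 16.7% of all genes were called and 7.81% called higher. The median change of the 10 carriers was 0.40, against −0.02 over all genes. Slc38a1, which had not passed the test in resting cells, had 121, 103, 149, 75.2 and 98.7 CPM with LPS alone and 267, 161, 264, 312 and 343 CPM with piericidin A and LPS. The groups did not overlap, and the change was 1.30 ± 0.19 (2.46-fold, adjusted p = 8.43e-06). Mice 496 and 520 had the largest rises and mouse 452 the smallest, within a range of 0.65 to 2.05. Slc3a2 had 687, 504, 613, 733 and 573 CPM with LPS and 1106, 674, 996, 1345 and 1183 CPM with both. It was higher in 5 of 5 mice, with mouse 452 below the highest LPS-treated libraries, and changed by 0.77 ± 0.14 (1.71-fold, adjusted p = 0.000323). Slc38a2 had 54.2, 78.1, 51.8, 49.4 and 77.7 CPM with LPS and 99.2, 61.7, 78.5, 93.9 and 144 CPM with both. It was higher in 4 of 5 mice and lower in mouse 452 (0.62 ± 0.18, adjusted p = 0.0183). That call was lost without mouse 449, 496 or 520 (adjusted p up to 0.106), without mice 496 and 503 (adjusted p = 0.0983) and with only the compared libraries.

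The light chain Slc7a11 had 187, 94.96, 96.3, 329 and 175 CPM with LPS and 305, 116, 111, 558 and 244 CPM with both agents. It was higher in 5 of 5 mice, but the groups overlapped widely and the change of 0.60 ± 0.47 did not pass the test (adjusted p = 0.402, 95% interval −0.35 to 1.55). Slc7a5 had 22.6, 21.5, 16.1, 43.6 and 21.6 CPM with LPS and 24.7, 20.1, 20.2, 41.5 and 29.0 CPM with both (0.12 ± 0.35, adjusted p = 0.858). The change in Slc7a1 was 0.48 ± 0.22 (adjusted p = 0.126), in Slc7a8 −0.38 ± 0.31 (adjusted p = 0.425) and in Slc1a5 0.28 ± 0.10 (adjusted p = 0.0625). With the mouse as a block these 3 passed the test too, Slc7a1 higher with 0.46 (adjusted p = 0.00548), Slc7a8 lower with −0.36 (adjusted p = 0.00881) and Slc1a5 higher with 0.27 (adjusted p = 0.0313), so that 6 carriers were called. Again, the share of all genes given for this comparison is from the fit with no block and is no background for the 6. The change of Slc1a5 was 0.821 in mouse 496 and 0.0118 to 0.247 in the other WT mice, and without mouse 496 the fit with no block gave 0.15 (adjusted p = 0.471). Slc1a4 (0.160 to 2.41 CPM with both agents) and Slc6a9 (0.384 to 1.26 CPM) had changes of 0.01 ± 0.44 and 0.32 ± 0.50 that did not pass the test (adjusted p = 0.994 and 0.706).

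Whether LPS altered the effect of piericidin A in WT cells was tested as the difference between both effects, with LPS minus without. Of all genes, 4.75% were called, 2.59% with a higher and 2.16% with a lower effect under LPS. Of the carriers, 3 were called. The effect on the leucine exchanger Slc7a5 was lower under LPS, with a difference of −1.78 ± 0.50 on the log2 scale (adjusted p = 0.0311), and that on the arginine carrier Slc7a1 differed by −1.13 ± 0.31 (adjusted p = 0.024). The effect on Slc38a1 was higher under LPS, by 1.11 ± 0.26 (adjusted p = 0.00886). For Slc7a11 the difference was −1.80 ± 0.67 with an adjusted p of 0.119, and with the mouse as a block it was called, at −1.86 (adjusted p = 0.00452). The block called Slc7a5, Slc7a1 and Slc38a1 as well (adjusted p = 1.62e-05, 2.23e-05 and 0.00158). The differences for Slc3a2 (−0.16, 95% interval −0.57 to 0.25) and Slc38a2 (−0.16, −0.69 to 0.36) did not pass the test. With no block, none of the carriers was called without mouse 496, or without mice 496 and 503. Without mouse 449, 452, 453 or 520 only 1 was, although the differences kept their sign throughout.

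In NDI1 cells, which carry the piericidin-resistant enzyme, no carrier passed the test for piericidin A, without or with LPS. No gene in the whole table was called in either comparison (0% of 11853 genes). At an unadjusted p below 0.05 these comparisons held 58 and 127 genes, of which 1 carrier and 0 carriers, and DESeq2 called 0 carriers in both. Each count is below a share of 0.05 of the 11853 genes, which chance alone would give in a well-scaled test. The few hits therefore do not measure how little changed. Slc7a11 had 21.1, 23.4, 11.6, 27.3 and 32.7 CPM in untreated NDI1 cells and 29.4, 18.7, 18.3, 39.7 and 42.7 CPM with piericidin A. These ranges overlapped and the change was 0.36 ± 0.48 (95% interval −0.62 to 1.33). Slc7a1 had 25.9, 20.6, 20.1, 25.8 and 39.8 CPM and 28.3, 25.5, 27.2, 30.6 and 48.2 CPM. It was higher with piericidin A in 5 of 5 NDI1 mice, by 0.13 to 0.43, which is below the range of 1.31 to 2.00 in WT mice (0.27 ± 0.22, adjusted p = 1). Slc7a5 was likewise higher in 5 of 5 NDI1 mice (7.77, 3.63, 6.49, 12.2 and 14.7 CPM without and 9.64, 5.78, 8.41, 14.3 and 18.8 CPM with piericidin A), by 0.35 ± 0.36 (adjusted p = 1). Slc3a2 had 394, 417, 345, 450.4 and 438 CPM without and 494, 426, 384, 447 and 467 CPM with piericidin A, and Slc38a2 had 121, 105, 122, 85.2 and 132 and 105, 97.6, 119, 89.2 and 136 CPM. Both pairs of groups overlapped. The one carrier with an unadjusted p below 0.05 was the glycine carrier Slc6a9 (0.226, 0.142, 0.406, 0.0896 and 0.644 CPM without and 0.914, 0.380, 0.795, 0.759 and 0.766 CPM with piericidin A, 1.21 ± 0.48, adjusted p = 1), at levels of a few counts per library.

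With LPS, Slc38a1 had 102, 65.8, 106, 85.4 and 101 CPM in NDI1 cells and 161, 71.2, 125, 109 and 129 CPM after piericidin A. It was higher in 5 of 5 mice, by 0.114 to 0.651 against 0.649 to 2.05 within single WT mice, so that mouse 447 lay just above WT mouse 452. The difference between genotypes in this effect was −0.93 (adjusted p = 0.0719), and the change in NDI1 of 0.37 ± 0.18 did not pass the test (adjusted p = 1). Slc3a2 had 574, 536, 595, 663 and 584 CPM with LPS and 638, 593, 641, 689.6 and 637 CPM with both agents. Each NDI1 mouse was slightly higher with piericidin A, and the change was 0.12 ± 0.14 (adjusted p = 1). For Slc7a11 (0.00), Slc7a5 (−0.04), Slc7a1 (0.07) and Slc38a2 (−0.10) the changes in LPS-treated NDI1 cells were close to 0, with 95% intervals that reached from −0.94 to 0.95 for Slc7a11 and from −0.47 to 0.28 for Slc38a2.

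**Figure D3:**
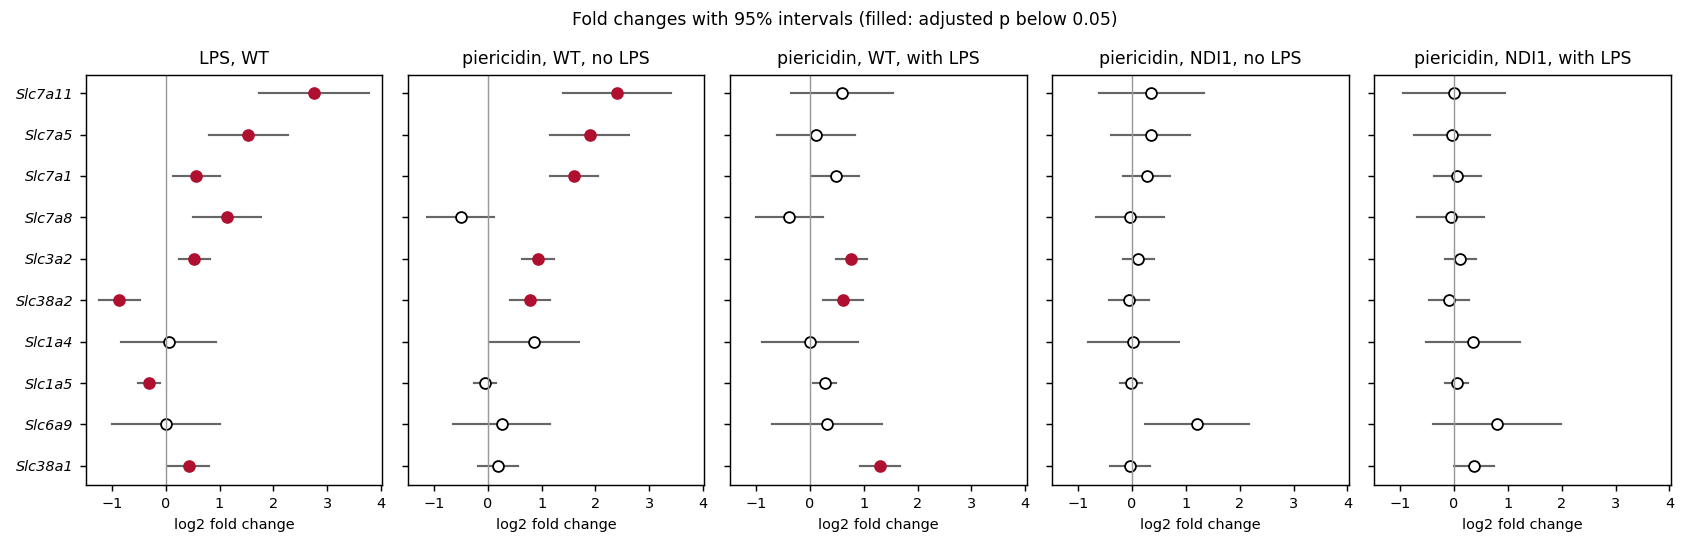
Log2 fold changes of the 10 carriers for LPS in WT and for piericidin A in WT and NDI1 cells without and with LPS. Points are estimates from edgeR and lines 95% intervals, and filled points passed the threshold of 0.05 on the adjusted p. The 5 filled points for piericidin A in resting WT cells lie between 0.78 and 2.40, and no point is filled in NDI1 cells.

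Whether piericidin A acted differently in the genotypes was tested directly, as the effect in NDI1 minus that in WT. Without LPS, 2 carriers were called, both lower, where 1.27% of all genes were called and 1.10% called lower. These were Slc7a1, with −1.33 ± 0.31 (adjusted p = 0.0173), and Slc3a2, with −0.81 ± 0.20 (adjusted p = 0.0298). For Slc7a11 (−2.04 ± 0.68, adjusted p = 0.15), Slc7a5 (−1.55 ± 0.51, adjusted p = 0.142) and Slc38a2 (−0.83 ± 0.26, adjusted p = 0.111) the differences had 95% intervals below 0 but did not pass the adjusted threshold. Since the 4 libraries of a mouse share its level, the block on the mouse changed these calls, and 5 carriers were called with it, Slc7a11 with −2.12 (adjusted p = 0.00347), Slc7a5 with −1.53 (adjusted p = 0.000322), Slc38a2 with −0.80 (adjusted p = 0.00208), Slc7a1 with −1.35 (adjusted p = 3.82e-06) and Slc3a2 with −0.78 (adjusted p = 3.37e-05). The 1.27% of all genes is from the fit with no block, so it is no background for these 5. With LPS, no carrier was called without the block, where 0.979% of all genes were called and 3 carriers had an unadjusted p below 0.05. The block gave 3 calls, Slc38a1 with −0.96 (adjusted p = 0.0124), Slc38a2 with −0.69 (adjusted p = 0.0113) and Slc3a2 with −0.63 (adjusted p = 0.00115), and DESeq2 called 1. The 0.979% of all genes is likewise from the fit with no block. Without the block, leaving out WT mouse 449 or 496 or NDI1 mouse 503, or mice 496 and 503 together, left 0 carriers called in resting cells, while each of the other mice but 452 and 453 left 1. With LPS, 2 were called without mouse 452 and 1 without mouse 453.

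**Figure D4:**
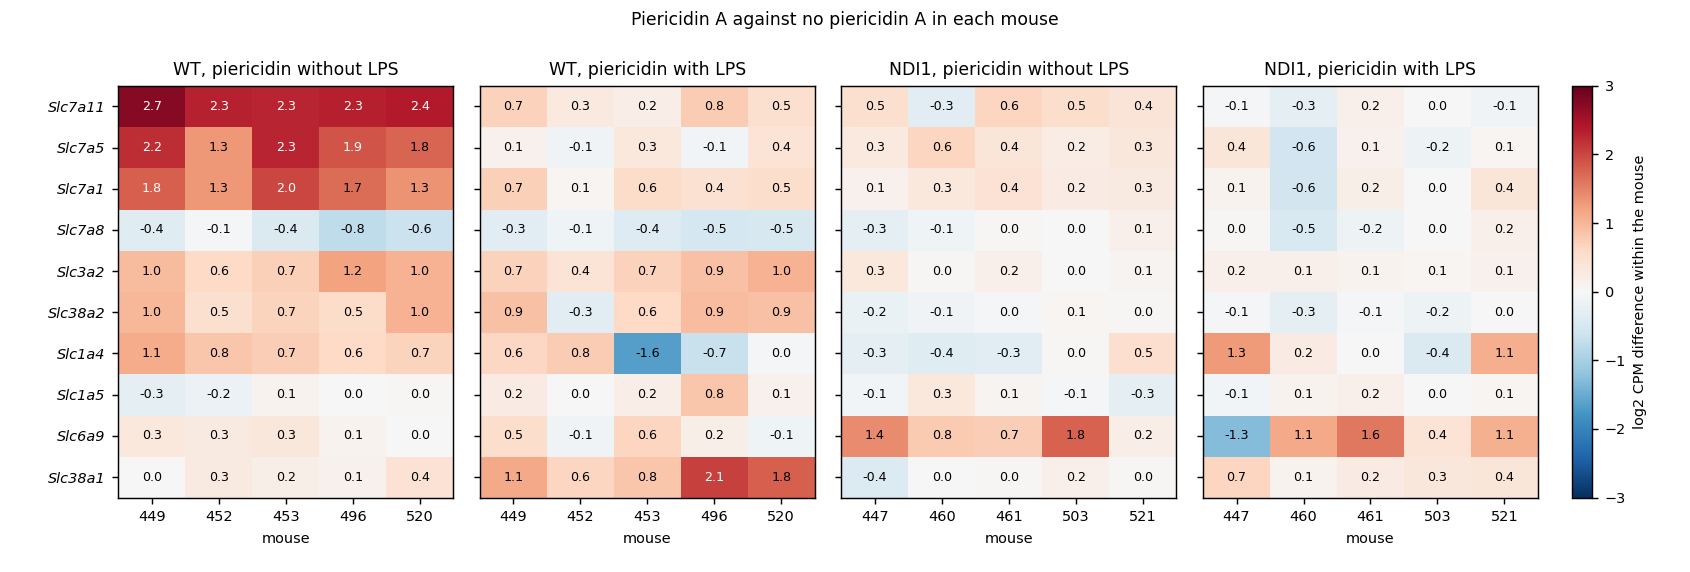
Difference in log2 CPM between piericidin A-treated and untreated, or doubly treated and LPS-treated, cells of the same mouse, for each carrier (rows) and mouse (columns), with red for higher and blue for lower with piericidin A. In resting WT cells Slc7a11 is higher by 2.29 to 2.73 in the 5 mice, and in NDI1 cells the differences lie between −0.32 and 0.65.

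Direct comparison of the genotypes under the same treatment gave 0 carriers called in untreated cells and 0 in LPS-treated cells, where 0% of all genes were called and 39 and 141 genes had an unadjusted p below 0.05 (0 carriers and 1 carrier). Here too each count of genes is below the share of 0.05 that chance alone would give, so it does not measure how alike the genotypes were. DESeq2 also called 0 carriers in both comparisons. With piericidin A, 5 carriers were called, all lower in NDI1, where 7.80% of genes were called and 4.31% called lower. The 10 tested markers of other cell types had a median difference of −0.49 here, with 0 of 10 above 0, and edgeR and DESeq2 called 0 and found 0 with an unadjusted p below 0.05. The 5 called carriers were Slc7a11 (−2.21 (adjusted p = 0.00307)), Slc7a5 (−1.497 (adjusted p = 0.00556)), Slc7a1 (−1.35 (adjusted p = 5.72e-05)), Slc3a2 (−0.89 (adjusted p = 6.5e-05)) and Slc38a2 (−0.82 (adjusted p = 0.00294)). For Slc7a11 the highest NDI1 library with piericidin A (42.7 CPM) lay below the lowest WT library (88.2 CPM), and the groups of Slc7a1, Slc3a2 and Slc38a2 were apart as well, whereas for Slc7a5 NDI1 mouse 521 (18.8 CPM) lay above WT mouse 452 (18.1 CPM). These comparisons share their piericidin A-treated libraries with those above, so they are no further test of the same difference. With LPS and piericidin A, 3 carriers were called lower in NDI1, Slc3a2 (−0.73 (adjusted p = 0.000802)), Slc38a2 (−0.61 (adjusted p = 0.0256)) and Slc38a1 (−1.18 (adjusted p = 4.7e-05)), where 12.0% of genes were called and 6.13% called lower. The 10 tested markers of other cell types had a median difference of −1.16 in this comparison, with 1 of 10 above 0, 0 called and 2 with an unadjusted p below 0.05 in both edgeR and DESeq2, and their part in these calls was not tested. The call of Slc38a2 was lost without mouse 449, 460, 461, 496, 503 or 520 (adjusted p up to 0.104), without mice 496 and 503 together (adjusted p = 0.110), without a filter and with only the compared libraries.

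LPS alone changed 8 of the 10 carriers in WT cells, where 62.5% of all genes were called (31.5% higher and 31.0% lower). The transcripts of 6 rose and those of 2 fell, with a median change of 0.48 over the carriers, against −0.01 over all genes. Slc7a11 rose most, by 2.75 ± 0.50 (6.75-fold, adjusted p = 1.14e-05), and its lowest LPS-treated library (94.96 CPM) lay above its highest untreated one (43.5 CPM). Slc7a5 rose by 1.53 ± 0.36 (2.90-fold, adjusted p = 0.000403) without overlap of the groups. Slc7a8, which was called with piericidin A only in the fit with the mouse as a block, and lower there, rose by 1.14 ± 0.31 (adjusted p = 0.00194), from 252, 223, 168, 503 and 283 CPM to 641, 555, 435, 967 and 544 CPM. It was higher in 5 of 5 mice, although untreated mouse 496 (503 CPM) exceeded LPS-treated mouse 453 (435 CPM). Slc3a2 rose by 0.53 ± 0.14 (adjusted p = 0.00155), Slc7a1 by 0.57 ± 0.22 (adjusted p = 0.0221) and Slc38a1 by 0.42 ± 0.18 (adjusted p = 0.0439). In contrast, Slc38a2 fell by 0.86 ± 0.18 (adjusted p = 0.000119), with every LPS-treated library (49.4 to 78.1 CPM) below every untreated one (98.1 to 139 CPM). The glutamine exchanger Slc1a5 had 19.4, 17.1, 17.5, 18.8 and 18.7 CPM in untreated cells and 13.8, 14.8, 16.7, 11.7 and 16.7 CPM with LPS. It fell by 0.31 ± 0.10 (adjusted p = 0.00848), and was lower in 5 of 5 mice.

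Slc1a4 changed by 0.06 ± 0.44 and Slc6a9 by 0.00 ± 0.50 with LPS, with 95% intervals of −0.83 to 0.94 and −1.004 to 1.01. Slc6a9 had 0 counts in LPS-treated cells of NDI1 mouse 521, which allows up to 3 counts, or 0.352 CPM. In NDI1 cells LPS changed 7 carriers, 5 up and 2 down, where 62.7% of genes were called (31.5% higher and 31.2% lower). The log2 fold changes in NDI1 were 2.80 for Slc7a11, 1.53 for Slc7a5, 1.15 for Slc7a8, 0.53 for Slc3a2, 0.49 for Slc7a1, −0.76 for Slc38a2 and −0.29 for Slc1a5. Slc38a1 changed by 0.30 ± 0.18 (adjusted p = 0.158), and the difference of the LPS effect between genotypes was not tested. In WT, Slc7a1 was not called without mouse 449, 452 or 496 (adjusted p up to 0.0670) or without mice 496 and 503 together (0.0803), Slc1a5 not without mouse 449 or 496 (up to 0.0902) or without both 496 and 503 (0.0964), and Slc38a1 not without mouse 449, 453, 461, 503, 520 or 521 (up to 0.128), nor with no filter, a stricter filter or only the compared libraries (up to 0.111). Without mouse 449, 5 carriers were called in WT. In NDI1, Slc7a1 was not called without mouse 447, 449, 452, 460, 461, 496 or 503 (up to 0.187) or without mice 496 and 503 together (0.130), nor with RLE factors, no filter, a stricter filter or only the compared libraries (up to 0.0851), and Slc1a5 not without mouse 521 (0.0665).

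The changes of the 10 carriers were then set beside those of related genes, whose counts are to be read against the 14.8% of all genes called with piericidin A in resting WT cells, 16.7% in LPS-treated WT cells and 62.5% with LPS in WT. Of 61 other amino acid and peptide carriers, 23 were tested, and with piericidin A in resting WT cells 2 rose and 0 fell, with a median change of −0.10. The carriers that rose were Slc7a2 (CAT2), a second carrier of arginine, with 0.97 ± 0.27 (adjusted p = 0.0116), and Slc36a4, a carrier of neutral amino acids, with 0.57 ± 0.15 (adjusted p = 0.00773). DESeq2 called 4 of the 23 in these cells, in place of 2. In LPS-treated WT cells, 5 rose and 6 fell with piericidin A (median 0.04). Of these, Slc7a7, another light chain of Slc3a2, fell by 0.90 ± 0.30, and the mitochondrial glutamate carrier Slc25a22 fell by 0.84 ± 0.17. The mitochondrial aspartate and glutamate carrier Slc25a13 rose by 0.84 ± 0.25 and the large neutral amino acid carrier Slc43a2 by 0.71 ± 0.19. With LPS in WT, 7 rose and 12 fell (median −0.46). Slc7a2 rose by 5.62 ± 0.31, a larger log2 change than that of any of the 10 carriers, Slc25a22 by 3.62 ± 0.19 and the lysosomal histidine and peptide carrier Slc15a3 by 2.28 ± 0.23, while Slc43a2 fell by 2.80 ± 0.20. In NDI1 cells, edgeR and DESeq2 called 0 of the 23 with piericidin A, without or with LPS, and 1 and 0 had an unadjusted p below 0.05.

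Genes of glutathione and cystine use, which share the cystine that Slc7a11 takes up, were examined in the same way. Of 22, 19 were tested. With piericidin A in resting WT cells 4 rose and 1 fell (median 0.36). Among these, the sulfiredoxin gene Srxn1 rose by 0.83 ± 0.23, Nfe2l2, which encodes NRF2, by 0.82 ± 0.14 and the thioredoxin gene Txn1 by 0.60 ± 0.20, while Keap1, whose product holds NRF2 in check, fell by 0.41 ± 0.11. In LPS-treated WT cells none rose and 2 fell (median 0.11), the glutathione reductase gene Gsr by 0.55 ± 0.19 and Nfe2l2 by 0.41 ± 0.14. Nfe2l2 was thus called in opposite directions without and with LPS. With LPS in WT, 8 of the 19 rose and 4 fell (median 0.14), a share near the 62.5% of all genes called. Among them were Ggct, Txn1, Chac2 and Keap1, which rose by 2.90 ± 0.23, 1.61 ± 0.21, 1.58 ± 0.25 and 1.497 ± 0.11.

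The 17 genes of an ATF4 list, none of them a carrier, were tested for 15 members. With piericidin A in resting WT cells 11 rose and 0 fell (median 1.28), and with LPS 4 rose and 0 fell (median 0.43). Gdf15, a secreted stress cytokine, rose by 4.21 ± 0.47 without and 3.14 ± 0.46 with LPS, and Ppp1r15a, a phosphatase subunit that reverses eIF2α phosphorylation, by 1.38 ± 0.21 and 0.76 ± 0.21. The pseudokinase gene Trib3 rose by 1.60 ± 0.42 and Atf3 by 1.498 ± 0.27 in resting cells. With LPS, the mTORC1 inhibitors Ddit4 and Sesn2 rose by 2.43 ± 0.46 and 0.71 ± 0.22 with piericidin A. Sesn2 and Trib3 fell with LPS alone, by 2.45 ± 0.21 and 1.66 ± 0.46, and Nupr1 and Cebpb rose by 3.39 ± 0.35 and 2.05 ± 0.22. In total 4 of the 15 rose and 6 fell with LPS (median −0.39), again a share near the 62.5% of all genes, and in NDI1 cells edgeR and DESeq2 called 0 with piericidin A, where 0 had an unadjusted p below 0.05. The difference between genotypes in the change with piericidin A was called, all lower in NDI1, for 3 of the 15 in resting cells, where 1.27% of all genes were called, and for 2 with LPS (0.979%). In resting cells edgeR called it for 0 of the 23 other carriers (2 with an unadjusted p below 0.05, 0 called by DESeq2) and 0 of the 19 glutathione genes (4 and 1), and with LPS for 0 of both (8 and 0, and 1 and 0).

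Finally, the genes whose log2 CPM followed each carrier most closely over the 40 libraries were found by Pearson's r, as a description of libraries that share mice and treatments. For Slc7a5 they were Mthfd2 (0.904), Atf3 (0.901), Mapk6 (0.890), and for Slc7a1 Mthfd2 (0.883), Dusp4 (0.855), Chac1 (0.850). Both thus had Mthfd2, a mitochondrial folate enzyme, as the closest gene. For Slc7a11 they were Dnajb6 (0.948), Gem (0.943), Mapk6 (0.941), for Slc3a2 Il17ra (0.920), Ankrd33b (0.909), Rgcc (0.903) and for Slc38a2 Ern1 (0.930), Gnl3 (0.919), Nars (0.917), the last being the asparaginyl-tRNA synthetase gene. Slc7a8 was followed by Rab10 (0.959), Nfix (0.958), Abr (0.957), Slc38a1 by Abl2 (0.901), Arhgap28 (0.882), Anxa11 (0.882) and Slc1a5 by Rpa1 (0.780) and Gga2 (0.771). The low carriers Slc1a4 (Mtpap (0.592), Cep57 (0.592), Med30 (0.583)) and Slc6a9 (Agap2 (0.570), Tiam2 (0.557), Prr11 (0.556)) had no gene above 0.6. Among the carriers themselves, Slc7a11 and Slc7a5 had an r of 0.884, Slc7a11 and their shared heavy chain Slc3a2 0.844 and Slc7a5 and Slc3a2 0.769, while the light chain Slc7a8 and Slc3a2 had 0.340. Slc7a8 and Slc38a2, which LPS moved in opposite directions, had −0.728.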

How the data were processed

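RNA-seq libraries were analysed from BMDMs of 5 WT and 5 NDI1 mice under 4 treatments. The authors deposited raw counts per gene, without normalization. These were obtained with HTSeq, over exons, from STAR alignments to mm10 of polyA-selected libraries trimmed with Trimmomatic. Annotation release and strand setting are not given in the sources used here. One of the table's columns (1 column of reads assigned to no library) was not used. Totals were 6950748 to 13552070 counts per library, and floors cover counting error only.

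Of 43430 Ensembl identifiers, 42462 matched a symbol. Genes were filtered by filterByExpr over the 8 groups, leaving 11853. One mean per group was fitted to all 40 libraries with TMM factors by glmQLFit, and contrasts were tested with glmQLFTest (edgeR 4.0.16, R 4.3.3). Benjamini-Hochberg adjustment covered all 11853 genes, and calls were made below 0.05. SE is the log2 fold change divided by the square root of F, and 95% intervals use the test's degrees of freedom. CPM is scaled by TMM, with a prior count of 2 for log2 CPM. Titles give the 4 libraries of a mouse the same number, which was taken as the mouse. Deviations from group means of same-numbered libraries correlated with a mean r of 0.453 (0.0995 to 0.769, 60 pairs), and fits with the mouse as a block are given where they change a call. No 2 replicates agreed within sampling noise (lowest chi-square per degree of freedom 9.89, 80 pairs). No source says whether extractions were batched. In simulated counts for piericidin A in resting WT, 73% of 200 genes changed by 1 on the log2 scale and 95.5% of those changed by 2 were called. In each simulation 8 unchanged genes were called too. The counts were drawn with no level shared by the libraries of a mouse, and more genes were called in the data, so these shares do not carry over directly.

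The carriers, gene lists and comparisons were chosen with earlier results of these data known. All 10 carriers are named. From each related list, up to 4 genes are named per comparison (LPS, and piericidin A without and with LPS, in WT), those with the largest change among called genes whose mean log2 CPM reached 1. For each carrier the 3 genes with the highest r are named, except 1 gene that is not reported here. Markers and the genes overlapping Slc6a9 (GENCODE M21) were named from lists or annotation. Alternatives were RLE factors, DESeq2 1.42.0, no filter, at least 10 counts in every library, only the compared libraries, the block, each mouse left out and, chosen after seeing the data, mice 496 and 503 left out.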

Additional observations from a re-analysis of the deposited data

Results flagged for a closer look

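In 8 of the 80 groups of 5 values (10 carriers in 8 groups), 1 mouse stood apart by Dixon's criterion for 5 values (a gap to its nearest neighbour above 0.71 of the range), where chance gives about 1 in 20 for independent normal values. The values were CPM on a linear scale and the same mice recur across groups, so this share is no exact background for the 8. With LPS, WT mouse 496 was high in Slc7a5 (gap over range 0.763) and Slc6a9 (0.934), and NDI1 mouse 503 was high in Slc7a5 (0.772). NDI1 mouse 503 was also high in Slc7a8 in untreated (0.901) and piericidin A-treated cells (0.822). NDI1 mouse 521 was high in Slc7a1 (0.774) and Slc1a4 (0.779) with piericidin A, and NDI1 mouse 447 in Slc38a2 with LPS (0.831).

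Effects of piericidin A differed between groups for 4 carriers. In resting cells the effect on Slc7a1 and Slc3a2 was lower in NDI1 than in WT, with differences of −1.33 and −0.81 on the log2 scale. In WT, the effect on Slc7a5 and Slc7a1 was lower with LPS than without (−1.78 and −1.13) and that on Slc38a1 higher (1.11). With no block, the adjusted p of these differences without single mice reached between 0.0737 and 0.132, so none was called in every such analysis. With the mouse as a block, edgeR called all of them (adjusted p from 3.82e-06 to 0.00158), and single mice were not left out of that fit.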

How the results depend on the processing

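Of 36 calls of a carrier in a comparison, 24 were made in every alternative analysis, 12 were lost in at least 1, none changed sign, and 14 others were made in an alternative only. With the mouse as a replicate block, 6 carriers were called for piericidin A in LPS-treated WT in place of 3, and for the difference between genotypes 5 in place of 2 without LPS and 3 in place of 0 with LPS. Calls over all genes in that fit were not set beside these counts. The block changed no call beyond those given above, and could not be fitted to NDI1 against WT under one treatment, where no mouse is in both groups. For the difference between genotypes, DESeq2 called 1 with LPS and, without a low-count filter, 1 was called without LPS. Leaving out both mice 496 and 503 gave 0 for the difference between genotypes without LPS and 0 in place of 3 for the difference between LPS and no LPS in WT. Leaving out each mouse in turn gave 5 to 8 carriers for LPS in WT, 0 to 2 for the difference between genotypes without LPS, 0 to 2 with LPS and 0 to 3 for the difference between LPS and no LPS in WT. The causes were not tested, beyond that fewer mice were compared. The other counts stayed within 1.5 times the main one. RLE factors or DESeq2 moved the median of all genes by at most 0.02 on the log2 scale. The depth of Slc1a4 and Slc6a9 (0 to 43 counts per library) limits what can be said of them.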
